A study of Drosophila melanogaster with 6 samples.

Results

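The genes described here are the glutathione transferases of the fruit fly Drosophila melanogaster and 8 further enzymes that handle superoxide, peroxide, thioredoxin and glutathione, measured in the oviduct after mating. They were chosen by name, as genes with a symbol that starts with GstD, GstE, GstO, GstS, GstT or GstZ and a fixed list of redox enzymes. Of 47 genes that the names cover, 42 had a probe set annotated to that gene alone, out of 10844 genes in all. There were 34 transferases among the 42. GstT1, Sod1, Jafrac1, Jafrac2 and Prx5 had no such probe set and were not analysed here.

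Oviducts, the ducts through which eggs leave the ovary, came from females at an age of 3 days that had mated and were dissected 3 h later, or from unmated females of the same age that were dissected in parallel. Each group had 3 Affymetrix arrays, described by the submitters as biological repeats. All flies were held at 23 ± 2 degrees Celsius with 12 h of light, and the strain is not given in the sources used here. Tracts of 400 to 500 females were pooled, and it is not stated whether each array had its own pool, so the p-values measure the spread between arrays, which may leave out the variation between pools. The samples are whole ducts with epithelium, muscle and nerve together. In such bulk RNA, fewer cells of a type and less RNA per cell cannot be told apart.

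Glutathione transferases join the tripeptide glutathione to reactive compounds, among them insecticides, plant toxins and the aldehydes left by lipid peroxidation. Insects have large delta and epsilon classes, and in flies most of their genes stand side by side in clusters. Superoxide dismutases turn superoxide into hydrogen peroxide, which catalase and peroxiredoxins remove. Flies have no glutathione reductase, so that thioredoxin reductase serves both the thioredoxin and the glutathione system. In the fly ovary, superoxide from the oxidase Nox and extracellular dismutase activity are known to take part in follicle rupture at ovulation.

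No gene of this set passed the test after mating. GstE9, an epsilon class transferase, had the largest difference, with an intensity of 28.9 ± 20.7 in mated and 101.5 ± 24.0 in unmated oviducts (SD, n = 3 each), and GstD7 of the delta class had 32.7 ± 15.4 and 80.3 ± 22.0. GstD2 and GstE3 also lay lower in all mated than in all unmated arrays, by smaller amounts. The brightest probe sets of the set, such as those of GstD1, catalase and the extracellular dismutase Sod3, had overlapping groups. Thioredoxin reductase, Trxr1, had a higher mean in mated oviducts, again with overlapping groups.

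Differences are given as log2 of the deposited intensity, mated minus unmated, with standard errors from limma, a linear model with variances shared across probe sets. Benjamini-Hochberg adjustment covered all 13966 probe sets with a threshold of 0.05. By limma, 0 of the 42 genes passed, as did 0% of all probe sets in either direction, and the adjusted p of the 42 ran from 0.651 to 0.997. At an unadjusted p of 0.05, 2 of the 42 were lower and 0 higher, against 5.56% lower and 1.04% higher among all probe sets. These background shares depend on scaling. Among all probe sets, 145 were higher and 776 lower as deposited. Quantile normalization gave 327 and 420, centring on the median 325 and 447, and cyclic loess 349 and 401. The mated values lay all below the unmated values in 4 of the 42 genes and all above them in 0, against 8.59% and 2.33% of all probe sets. The difference was larger than the pooled within-group SD in 13 of the 42 genes, 31.0%, against 32.1% of all genes. By these counts the 42 genes were close to the background of the array.

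**Figure D1:**
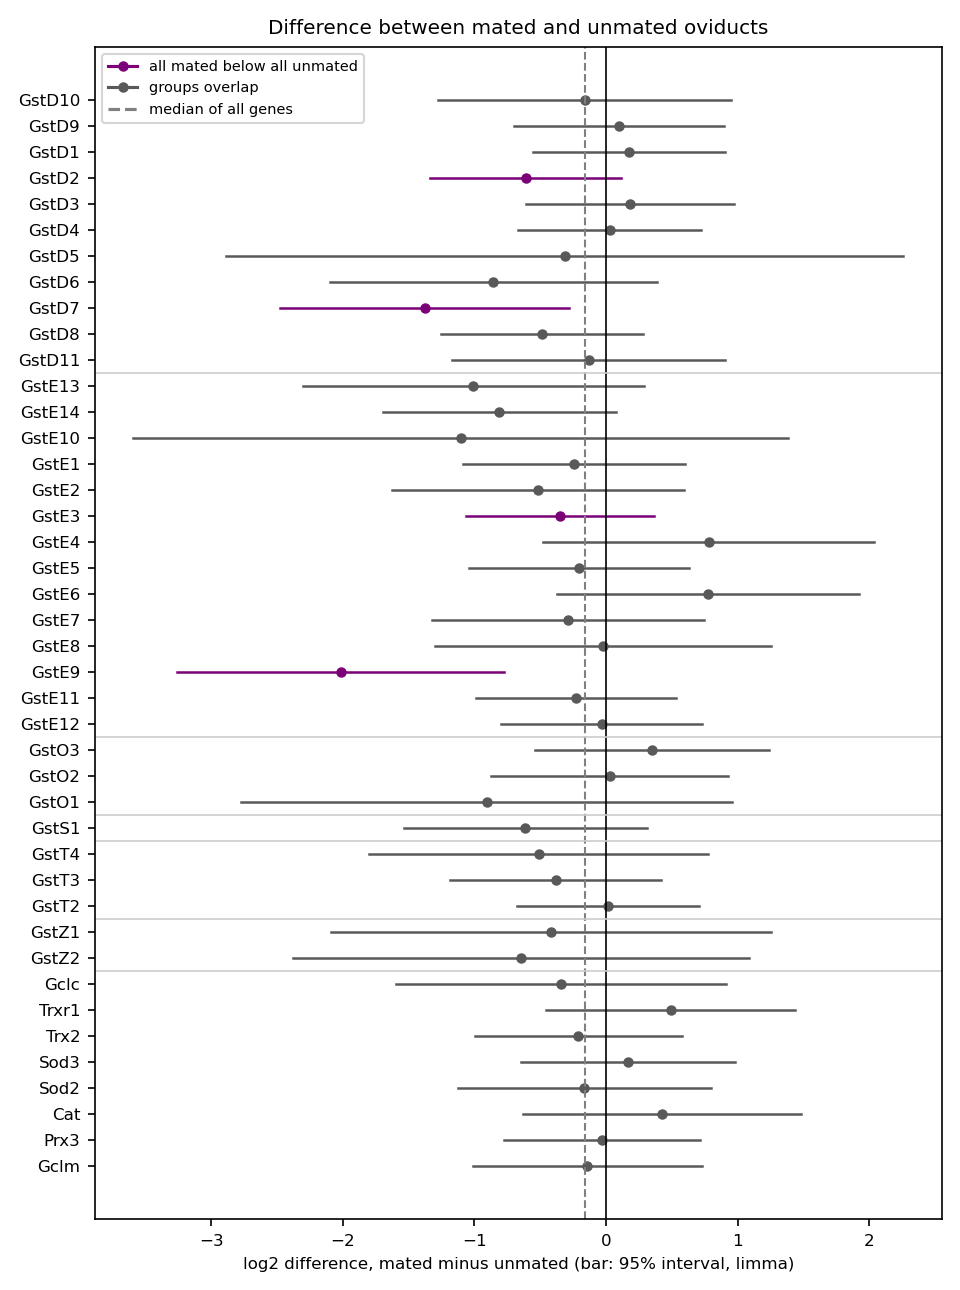
Log2 difference between mated and unmated oviducts for each of the 42 genes (points) with the 95% interval from limma (bars), grouped by class and ordered within a class as in the genome. The dashed line is the median of all genes, -0.16. GstE9 and GstD7 have intervals below 0, and 4 genes drawn in purple have mated values all below the unmated values.

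The arrays themselves differed within the unmated group. Unmated arrays 1 and 2 had a median intensity of 86.2 and 86.0, against 62.4 on unmated array 3 and 60.6 to 66.5 on the mated arrays. The mean of 3 control probe sets for 18S ribosomal RNA was 169 to 464 on the mated arrays, and 1005, 806 and 224 on unmated arrays 1, 2 and 3. The mean of 9 spike-in control probe sets was 1772 to 2207 on the mated arrays, and 1363, 1162 and 2160 on the unmated arrays. The part of these control signals in the differences was not tested. Markers of ovary, eggshell and germline had 12 of 14 listed genes measured, whose summed intensity ran from 1693 to 3533 on the mated arrays, while on unmated arrays 1, 2 and 3 it was 12154, 12618 and 2825. Midgut and Malpighian tubule had 8 of 10 markers measured, with sums from 459 to 894 on the mated arrays and of 3206, 3762 and 844 on the unmated arrays. Their median log2 difference relative to all genes was -1.43 and -1.45. Of the 8 midgut and tubule genes, 7 lay below the all-gene median and 1, Irk2, above it. Irk2 read 117.7, 123.1 and 100.4 on the mated and 136.2, 104.3 and 113.5 on the unmated arrays. LManI read 4.3, 6.4 and 14.2 on the mated and 48, 4 and 3.8 on the unmated arrays. The list pools midgut with tubule, so its sums do not show that RNA of both was high on unmated arrays 1 and 2. The sums of 7 of 8 fat body markers ran from 9076 to 15886 on mated and from 15165 to 28439 on unmated arrays. Most of each sum came from the yolk protein genes Yp1, Yp2 and Yp3, which read 12586, 5895.9 and 8401.5 on unmated array 1. Plain log2 differences of the other measured fat body markers, Lsp2, Fbp1, Lip4 and apolpp, were -0.47, -0.13, -0.56 and -0.32. Taken relative to all genes, these were -0.31, 0.029, -0.41 and -0.16. Muscle markers, 6 of 9, gave 53417 to 67145 and 45765 to 69720. No measured marker was at 0, but the lowest deposited intensity of any probe set was 0.2. The absence of a 0 therefore does not show that a cell type was present. Of the oviduct markers, the octopamine receptor gene Octbeta2R read 653, 242.9 and 378.6 on the mated and 318, 245.9 and 405.3 on the unmated arrays, while Oamb, the defining receptor of the oviduct epithelium, and Abd-B were not analysed here. The part of these other tissues in the differences below was not tested, and for many genes the difference without unmated arrays 1 and 2, which leaves a single unmated array, is given beside the reported one.

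**Figure D2:**
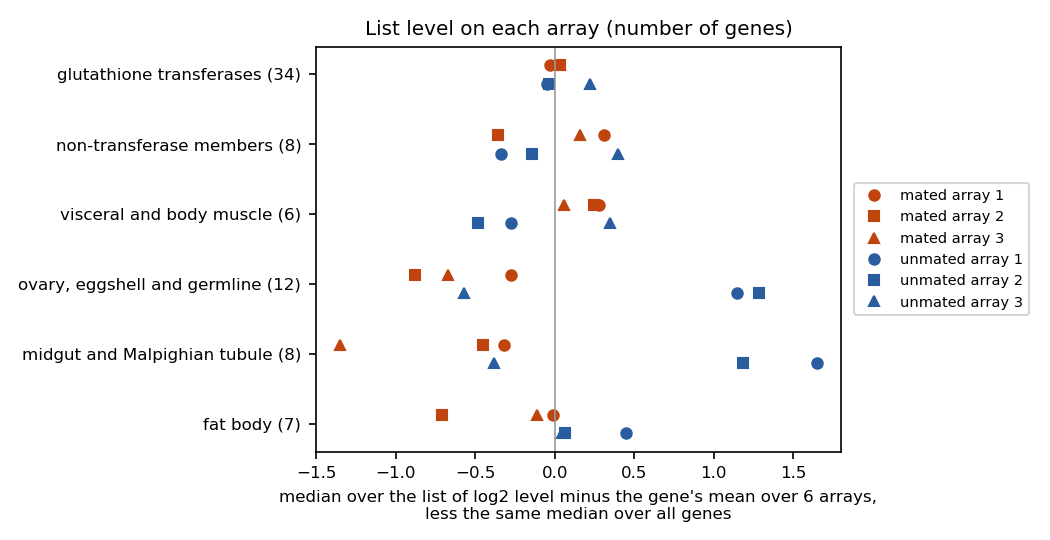
Level of each list on each array, as the median over its genes of the log2 level minus the gene's mean over the 6 arrays, less the same median over all genes. Mated arrays are drawn above unmated arrays. Unmated arrays 1 and 2 lie at 1.14 and 1.28 for the ovary markers and at 1.65 and 1.18 for the midgut and tubule markers. The transferases lie between -0.05 and 0.22 on all 6 arrays. The 8 other redox enzymes lie at 0.31, -0.36 and 0.16 on mated arrays 1, 2 and 3 and at -0.34, -0.15 and 0.40 on unmated arrays 1, 2 and 3.

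As a list, the transferases lay close to the rest of the array. Over the 34 genes the median difference, taken relative to the median of all genes (-0.16), was -0.15. There were 12 transferases above and 22 below that median, and 17 and 25 of all 42 genes, against 49.4% and 50.6% of all probe sets. These counts depend on the arrays used, since 26 of the 42 were above the median without unmated replicate 3, 23 with array weights and 12 without unmated arrays 1 and 2. The level of the list was -0.03, 0.03 and 0.03 on mated arrays 1, 2 and 3. It was -0.05, -0.04 and 0.22 on unmated arrays 1, 2 and 3. By class, the relative median was -0.0069 for GstD, -0.11 for GstE, 0.18 for GstO, -0.23 for GstT and -0.38 for GstZ. GstS1, alone in its class, had -0.46. Of 14 GstE genes, 10 lay below the all-gene median. The GstE level was 0.028, -0.00086 and -0.093 on the mated and 0.13, 0.11 and 0.15 on the unmated arrays. The GstO level was 0.21, 0.17 and 0.041 on the mated arrays, and -0.49, -0.59 and 0.50 on unmated arrays 1, 2 and 3. Whether the classes differ was not tested. The 8 other redox enzymes had a relative median of 0.071, which turned to -0.064 under quantile normalization and -0.054 under cyclic loess. It ran from -0.036 without unmated replicate 1 to 0.32 without mated replicate 2, and was -0.34 without unmated arrays 1 and 2. For all 42 genes it was -0.064, and 30 of the 42 had a log2 difference below 0, as did 62.2% of all genes. That count depends on scaling, since 12 genes were above 0 as deposited, 16 under quantile normalization, 16 under cyclic loess and 23 under median centring. Without unmated arrays 1 and 2 the relative median of the 42 was -0.27.

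**Figure D3:**
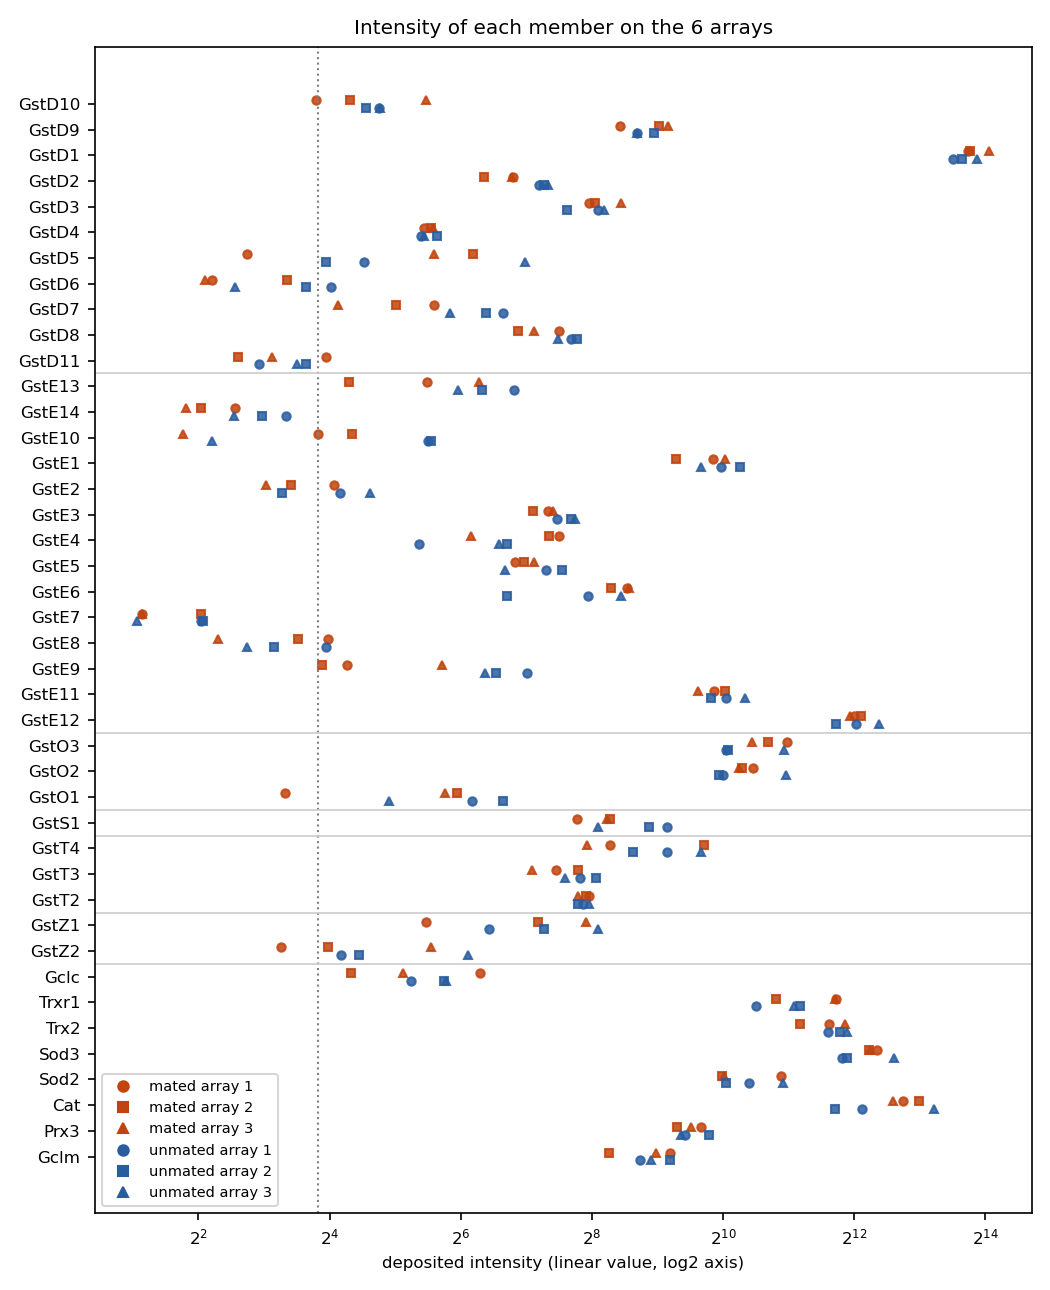
Deposited intensity of the 42 genes on the 3 mated arrays (orange) and the 3 unmated arrays (blue), on a log2 axis. The dotted line marks 14.2, the lowest lower quartile of any array. GstE7 and GstE14 lie below it on all 6 arrays, and GstT2 and GstD4 have the tightest values.

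The delta class stands on chromosome arm 3R in the order GstD10, GstD9, GstD1, a noncoding RNA gene, GstD2 to GstD8, CG10035 and GstD11, by the RefSeq genes of Release 6 plus ISO1 MT. All 11 were measured. GstD1, a transferase known for acting on the insecticide DDT and used as a reporter of oxidative stress, read 13617.9, 13873.9 and 17077.2 in mated and 11615, 12848 and 15058.8 in unmated oviducts. The groups overlapped, and the log2 difference of 0.17 had a 95% interval from -0.56 to 0.90. Without unmated arrays 1 and 2 it was -0.027.

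GstD7 read 48.3, 32.3 and 17.5 in mated and 100.5, 83.5 and 56.9 in unmated oviducts. Every mated value was below every unmated value. The log2 difference was -1.38 ± 0.47 (SE), with an unadjusted p of 0.0208 and an adjusted p of 0.693 in limma. It was -0.80 with 32 added to every intensity before log2 and -0.92 without unmated arrays 1 and 2.

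GstD2 read 111.5, 82.2 and 110.1 in mated and 145.7, 154 and 160.1 in unmated oviducts. Its unmated values lay close together and all above the mated ones, and unmated array 3 was the highest of them. The log2 difference was -0.61 ± 0.31 (SE) with an adjusted p of 0.783 in limma, and -0.67 without unmated arrays 1 and 2. Median centring gave -0.34.

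The other delta genes had overlapping groups. GstD3, the delta gene with the largest difference above 0, read 249.2, 264.3 and 346.4 in mated and 273.3, 196.8 and 291.5 in unmated oviducts, so that its groups overlapped. GstD4 ran from 41.9 to 50 over the 6 arrays, with a log2 difference of 0.028, among the smallest spreads of the set. GstD5 ran from 6.7 to 126.5, an 18.9-fold range with mated array 1 at the bottom and unmated array 3 at the top. Its difference of -0.31 became -2.14 without unmated arrays 1 and 2. GstD6 stayed under 14.2 on 5 of 6 arrays, and its difference of -0.86 became -0.0086 without unmated arrays 1 and 2. For GstD8 it was -0.49, and -0.33 without those arrays. GstD9, GstD10 and GstD11 had differences of 0.097, -0.16 and -0.13. The delta genes are close relatives, so a probe set may also take up transcripts of a paralog, which was not tested. Whether GstD2 and GstD7 differ from their neighbours was not tested either.

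**Figure D4:**
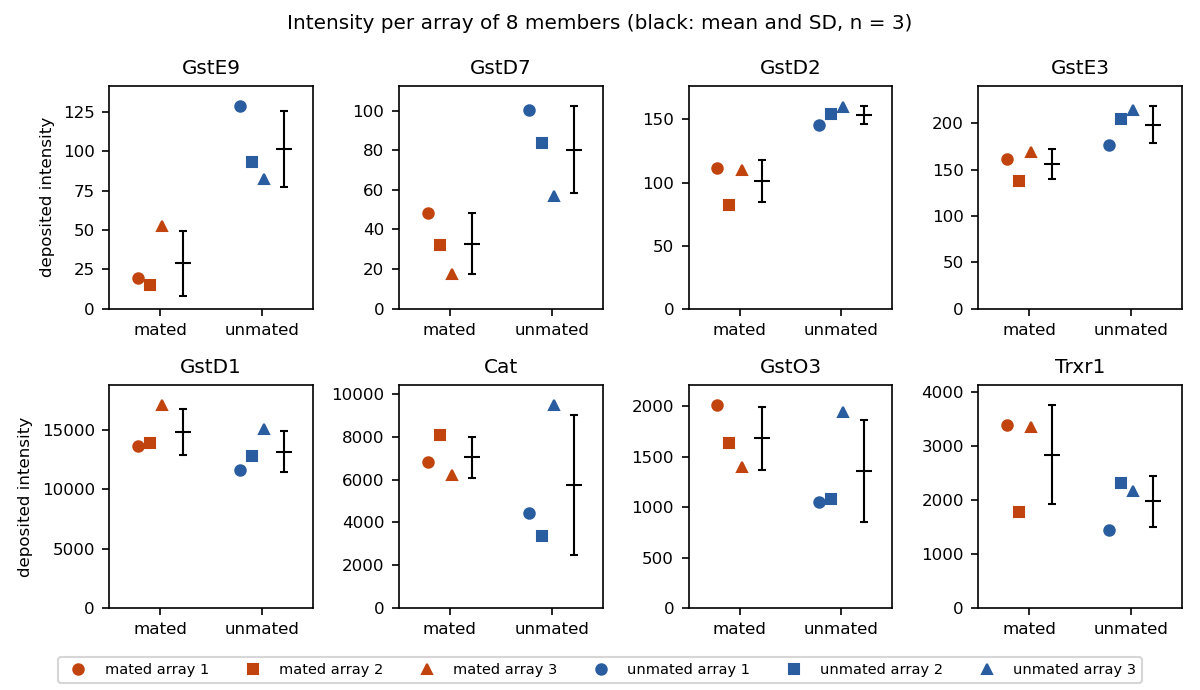
Deposited intensity on each array for 8 genes, mated left of unmated, with the mean and SD (black, n = 3 each). In the upper row the groups do not overlap, as for GstE9 with 14.8 to 52.6 in mated and 82.6 to 128.5 in unmated oviducts. In the lower row they overlap, and unmated array 3 is far above unmated arrays 1 and 2 for Cat and GstO3.

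The epsilon class had 14 genes, 10 of them in a single cluster on arm 2R from GstE10 through GstE1 to GstE9, with pseudogenes between GstE3 and GstE4. GstE9 at its end read 19.2, 14.8 and 52.6 in mated and 128.5, 93.3 and 82.6 in unmated oviducts. Mated array 3 stood above the other mated arrays but still below the lowest unmated array. Mated arrays 1 and 2 were close to the lower quartile of all probe sets on those arrays, 16.6 and 17.4, so that the size of the difference is uncertain. The log2 difference was -2.02 ± 0.53 (SE), with an unadjusted p of 0.00620 and an adjusted p of 0.651 in limma. Without unmated arrays 1 and 2 it was -1.75. With 32 added before log2 the difference was -1.17. The annotated span of GstE9 overlaps that of imd, an adaptor of immune signalling, whose own probe set, with overlapping groups, read 28.5, 55.9 and 46.2 in mated and 34.3, 38.6 and 14.8 in unmated oviducts. Annotated spans also overlap between GstE1 and GstE10, and GstE12, GstE13, GstO2, GstT2 and Trxr1 each overlap another gene.

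GstE3 read 161.6, 137.7 and 169 in mated and 176.4, 204.8 and 214.5 in unmated oviducts. The groups did not overlap, but the gap between mated array 3 and unmated array 1 was small. The log2 difference was -0.35 ± 0.30 (SE), with an adjusted p of 0.892 in limma, and -0.082 after median centring.

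GstE4 and GstE6 lay on the other side. GstE4, which had the largest difference above 0 of all 42 genes, read 181.2, 161.8 and 71.4 in mated and 41.2, 104.4 and 96.2 in unmated oviducts. Mated array 3 lay among the unmated values, and the log2 difference was 0.78 ± 0.54 (SE) with an adjusted p of 0.836 in limma. It was 0.35 without unmated replicate 1, and leaving out both unmated arrays 1 and 2 gave 0.41. GstE6 read 369.5, 314.5 and 379.3 in mated and 244.8, 103.8 and 348.2 in unmated oviducts. Its difference of 0.77 became 0.27 when the low unmated array 2 was left out and 0.021 when unmated array 1 was left out too.

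GstE12, among the 4 brightest transferase probe sets, read 4077.3, 4406.2 and 3919.2 in mated and 4189.2, 3379.3 and 5328.1 in unmated oviducts. The mated values lay inside the unmated range, and the log2 difference was -0.033 with a 95% interval from -0.80 to 0.73. GstE1 and GstE11 were also bright and had differences of -0.24 and -0.23, while GstE5 had -0.20. Without unmated arrays 1 and 2 the differences were -0.37 for GstE12, 0.059 for GstE1, -0.50 for GstE11 and 0.30 for GstE5. GstE13 averaged 47.4 ± 29.0 in mated and 84.8 ± 25.3 in unmated oviducts (SD, n = 3 each), with a difference of -1.01 that stayed between -1.47 and -0.48 under all alternatives run, and its groups overlapped. GstE10 read 14.2, 20.3 and 3.4 in mated and 45.4, 46.7 and 4.6 in unmated oviducts, so that unmated array 3 lay with the mated arrays, as it did for the ovary and gut markers. Its difference of -1.10 became 1.11 without unmated arrays 1 and 2, which leaves only the unmated value of 4.6. GstE10 was under 14.2 on 2 arrays, and the remaining epsilon genes were so on more arrays. GstE14, known as noppera-bo and needed for ecdysone synthesis, was under 14.2 on all 6 arrays, as was GstE7, and GstE2 and GstE8 were so on 3 and 4 arrays. GstE14 and GstE2 differed by -0.81 and -0.52, and by -0.40 and -1.12 without unmated arrays 1 and 2.

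The smaller classes gave no gene with separate groups. The omega genes GstO3, GstO2 and GstO1 stand beside sepia, an omega transferase of eye pigment synthesis. GstO3 read 2008.1, 1639.7 and 1395.3 in mated and 1053.4, 1080 and 1944.3 in unmated oviducts. It was high on unmated array 3, within the mated range, and its difference of 0.35 ± 0.38 (SE) became -0.23 without unmated arrays 1 and 2. GstO2 showed the same split of the unmated arrays, with 1407.2, 1245.8 and 1206.1 in mated and 1023.8, 980.1 and 1988.9 in unmated oviducts. Its 3 probe sets differed by 0.028, 0.59 and -0.053, and the first of these, the brightest, is of a type that can match several similar transcripts. GstO1, in contrast, read 10, 61.2 and 54 in mated and 72.2, 100.2 and 30.1 in unmated oviducts, with a difference of -0.91 that became 0.092 without unmated arrays 1 and 2.

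GstS1, the sigma class transferase that is abundant in fly muscle and acts on lipid aldehydes, read 218.8, 309.7 and 299.4 in mated and 566.3, 468.6 and 272.5 in unmated oviducts. Here unmated array 3 lay within the mated range. The difference was -0.61 ± 0.39 (SE), with an adjusted p of 0.828 in limma, and 0.0013 without unmated arrays 1 and 2.

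Among the theta genes, GstT2 had the smallest range of the set, 1.13-fold over the 6 arrays, with 247.3, 241.2 and 219.8 in mated and 232.9, 219.9 and 248.4 in unmated oviducts. Its log2 difference was 0.014 with a 95% interval from -0.68 to 0.71. GstT4 read 309.8, 835.5 and 243.2 in mated and 566, 395.1 and 813.9 in unmated oviducts, a difference of -0.51 ± 0.55 (SE). It ran from -1.05 without mated replicate 2 to -0.16 without mated replicate 3, and was -1.03 without unmated arrays 1 and 2. For GstT3 the difference was -0.38, and -0.15 without unmated arrays 1 and 2.

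The zeta enzymes work in the breakdown of tyrosine. GstZ1 read 44.2, 144.1 and 239.5 in mated and 86.2, 153.7 and 273.7 in unmated oviducts, a difference of -0.42 ± 0.71 (SE) that became -1.25 without unmated arrays 1 and 2. GstZ2 read 9.6, 15.7 and 46.9 in mated and 18, 21.8 and 69 in unmated oviducts, a difference of -0.65 ± 0.74 (SE). That difference was -0.046 without unmated replicate 3 and -1.29 without mated replicate 3. Leaving out both unmated arrays 1 and 2 gave -1.85. These neighbours in the genome shared their order of arrays, with array 3 highest and array 1 lowest in each group. As in the delta class, the probe set of either gene may also take up transcripts of the other, which was not tested.

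Of the dismutases, the extracellular enzyme Sod3 read 5224.7, 4772.4 and 4820.3 in mated and 3601.9, 3801 and 6201 in unmated oviducts. Unmated array 3 was the highest of all arrays and the other unmated arrays the lowest, so the difference of 0.17 ± 0.35 (SE) became -0.33 without them. Its 2 dimmer probe sets differed by 0.36 and -0.028, both with overlapping groups. Mitochondrial Sod2 read 1881.1, 1014.4 and 1028.2 in mated and 1348.9, 1055.1 and 1936.6 in unmated oviducts, with a difference of -0.16 ± 0.41 (SE) that became -0.63 without unmated arrays 1 and 2.

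Catalase, Cat, read 6819.8, 8098.6 and 6195.4 in mated and 4451.6, 3344.9 and 9464.8 in unmated oviducts. The mated values fell in the gap between unmated array 3 and the other unmated arrays, over which unmated array 3 was 2.45-fold higher. The difference of 0.43 ± 0.45 (SE) had an adjusted p of 0.922 in limma and depended on the unmated arrays used. It was 0.86 with unmated arrays 1 and 2 alone, 0.11 with unmated arrays 1 and 3, and -0.44 with unmated array 3 alone. The mitochondrial peroxiredoxin Prx3 was even across arrays, with 811, 627.9 and 733 in mated and 683.4, 885.6 and 654 in unmated oviducts and a difference of -0.028, 95% interval -0.77 to 0.72.

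Trxr1, thioredoxin reductase, read 3381.6, 1782.8 and 3344.7 in mated and 1441.8, 2319.6 and 2172.5 in unmated oviducts. Mated arrays 1 and 3 stood above all unmated arrays, and mated array 2 lay below unmated arrays 2 and 3. The log2 difference was 0.49 ± 0.40 (SE), with an adjusted p of 0.874 in limma, and it ran from 0.28 without unmated replicate 1 to 0.80 without mated replicate 2. Its substrate thioredoxin, Trx2, read 3146.7, 2295.8 and 3720.4 in mated and 3112.9, 3505.2 and 3801.3 in unmated oviducts, a difference of -0.21 ± 0.33 (SE) that became -0.34 without unmated arrays 1 and 2.

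Glutamate-cysteine ligase carries out the first step of glutathione synthesis. Its catalytic subunit gene Gclc read 78.8, 20 and 34.7 in mated and 37.9, 53.6 and 54.8 in unmated oviducts, a difference of -0.34 ± 0.53 (SE) that became -0.53 without unmated arrays 1 and 2. The modifier subunit gene Gclm read 581.6, 305.8 and 503.5 in mated and 427.4, 586.6 and 478.3 in unmated oviducts, a difference of -0.14 ± 0.37 (SE). In both subunit genes mated array 1 was the highest and mated array 2 the lowest mated array, and in both the groups overlapped. Mated array 2 was also the lowest mated array for Trxr1, Trx2, Sod2, Sod3 and Prx3, but the highest for Cat.

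Within the unmated group, array 3 stood above both other arrays in 21 of the 42 genes, 50% against 25.4% of all genes. Among brighter genes, those above the median gene level, this was so for 16 of 26, 61.5% against 34.3%. It was the highest of all 6 arrays in 14 of the 42, among them Cat, Sod3, Sod2, Trx2, GstO2, GstE12 and GstE11. The share of all genes for this last count was not taken, so it cannot be called particular to the set. The median pooled within-group SD on the log2 scale was 0.45 for the 42 genes against 0.55 over all genes, and 0.32 against 0.40 among brighter genes. Brightness was used only to sort probe sets and does not rank transcripts.

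Other genes of redox and detoxification pathways were taken from 8 lists with 44 genes, of which 37 were measured. By limma 0 passed, and 1 was higher and 0 lower at an unadjusted p of 0.05, against 1.04% and 5.56% of all probe sets. The mated values lay all above the unmated values in 1 gene and all below them in 2, against 2.33% and 8.59% of all probe sets. The median log2 difference of the 37 genes was -0.16, as over all genes. The Nrf2-type regulator cnc, which drives many transferase genes, read 118.3, 110 and 92.7 in mated and 128.6, 108.5 and 112.3 in unmated oviducts. Its partner maf-S had a difference of -0.31, and its inhibitor Keap1 had -0.16 ± 1.24 (SE). In the list on NADPH supply, the NADPH-making enzymes Men and Idh differed by -0.34 and 0.034 and Taldo, of the pentose phosphate pathway, by 0.22, and Ggt-1, which breaks down glutathione outside cells, by -0.37. Among other peroxidases, Pxd, Prx6a and Pxn differed by -0.26, -0.24 and -0.17.

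The germline thioredoxin deadhead, dhd, read 822.8, 724.5 and 944.5 in mated and 3969, 4016.2 and 583.3 in unmated oviducts. Unmated arrays 1 and 2 stood far above all others and unmated array 3 below them all, the split seen for the ovary markers. Its difference was -1.35 ± 0.75 (SE), with an adjusted p of 0.799 in limma. In the same list of thiol enzymes, the dim Grx1t differed by -0.94 and MsrA by 0.53. Grx1, named after its values were seen, had mated values of 424.7, 442.9 and 343.2, all below 466.2, 463.9 and 501 in unmated oviducts.

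The superoxide-producing oxidase Nox read 917, 796.8 and 1106.8 in mated and 1157.4, 1021.7 and 1148.2 in unmated oviducts, a difference of -0.25 ± 0.31 (SE). Duox and ry differed by 0.66 and 0.37, each with a standard error above its size. Among transferase relatives, gfzf, the microsomal enzyme Mgstl and the elongation factor subunit eEF1gamma differed by -0.41, -0.31 and 0.13. Of the P450 genes, the mitochondrial Cyp12a4 read 1258.3, 712.3 and 2552.6 in mated and 473.2, 680.7 and 478.2 in unmated oviducts. Its groups did not overlap, although mated array 2 came close to unmated array 2, and the difference was 1.30 ± 0.51 (SE) with an adjusted p of 0.745 in limma. Cyp6w1 had 163.2, 159 and 102 in mated and 373.5, 280.9 and 164.1 in unmated oviducts, a difference of -0.90, and Cyp6a2 differed by -0.33.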

How the data were processed

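The authors deposited 1 linear intensity for each probe set and array, between 0.2 and 30276.7. RMA is named without a version, per the submitters' processing notes. RMA normally gives log2 values of equal quartiles, which these are not, and the mean of the middle 96% ran from 250.05 to 250.06 over the arrays, so the summary used stays unknown. Detection calls were not used here. After 44 control probe sets were left out, 13966 remained. Symbols came from the platform annotation, updated through Entrez identifiers against RefSeq (Release 6 plus ISO1 MT, names, overlaps and gene order only). Where a gene had several probe sets, the one of highest mean log2 intensity stood for it. The log2 intensities of mated and unmated arrays were compared by a two-sided moderated test in limma 3.58.1 (eBayes after lmFit) under R 4.3.3, with no offset, filter or further normalization, tested on simulated data. Intensities under 14.2, the lowest lower quartile of any array, are called dim. The number of arrays limits the precision. Members and lists were chosen with earlier results of these data known. All members are named. Values per array are given for the 4 brightest transferases, all non-transferases, genes with an unadjusted p under 0.05 or separate groups and the extremes of each class. Up to 3 genes with the smallest p are named per other list. The alternatives were 3 normalizations, an offset of 32, a level filter, trend and robust variances, array weights, a replicate block, each array or unmated arrays 1 and 2 left out, a 1.5-fold minimum, an adjusted p of 0.01 and probe sets averaged per gene.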

Additional observations from a re-analysis of the deposited data

How the results depend on the processing

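No probe set passed the adjusted threshold under any alternative run, and the adjusted p of the 42 genes never fell below 0.255, the value of GstE9 without unmated replicate 3. Same-numbered mated and unmated arrays deviated from their group means with correlations of -0.40, -0.11 and -0.30. Deviations from a group mean are not independent between arrays, so these values cannot decide whether same-numbered arrays were handled together. In these deviations each mated array correlated best with an array of another number, mated 1 with unmated 3 at 0.45, mated 2 with unmated 1 at 0.42 and mated 3 with unmated 2 at 0.39, and no fit with that matching was run. In log2 level, over genes above the median level, mated 1 and unmated 3 correlated at 0.952. Pairs within a group had 0.868 to 0.929, and the cause was not tested. A replicate block cannot change the log2 differences, since each replicate number holds a mated and an unmated array. Only the error estimates changed, and 138 probe sets were higher and 807 lower at an unadjusted p of 0.05. The relative median of the 42 genes, -0.064 as reported, was 0.12 with array weights and -0.27 without unmated arrays 1 and 2. It ran from -0.14 to 0.14 when single arrays were left out, with unmated replicate 3 giving the highest value. For the transferases it ran from -0.27 without unmated replicate 1 to 0.042 without unmated replicate 3. For the other redox enzymes it was -0.34 without unmated arrays 1 and 2. The counts at an unadjusted p of 0.05, 145 higher and 776 lower in the fit as reported, became 303 and 1662 with array weights, 384 and 232 without unmated arrays 1 and 2, 59 and 283 with a 1.5-fold minimum, and 79 and 245 among probe sets above the median level. With single arrays left out they ran from 127 to 292 higher and from 433 to 1728 lower, both highest without unmated replicate 3. Of the 42 genes, 2 were then higher and 6 lower. The cause of these shifts was not tested.

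The sign of the log2 difference was kept in every alternative by 15 of the 42 genes, 12 lower and 3 higher, the higher ones being GstE4, GstE6 and Trxr1. The replicate block, the level filter, the trend and robust variances and the 1.5-fold minimum cannot turn a sign. A kept sign does not mean a kept size, as GstD6 was at -0.0086 and GstE6 at 0.021 without unmated arrays 1 and 2. Signs turned in the others as follows. After median centring the values were GstD10 0.10, GstD11 0.13, GstE1 0.022, GstE11 0.037, GstE12 0.23, GstE5 0.062, GstE8 0.24, Sod2 0.10, Prx3 0.24, Trx2 0.057 and Gclm 0.13. After cyclic loess they were GstD10 0.19, GstD11 0.30, GstD5 0.013, GstE7 0.25, GstE8 0.41 and GstO2 -0.030. After quantile normalization they were GstD10 0.15, GstD11 0.26, GstD5 0.056, GstE7 0.17, GstE8 0.37 and GstO2 -0.014. Array weights gave GstD5 0.31, GstE12 0.029 and GstZ1 0.069, and an offset of 32 gave GstE8 0.0087. Without unmated arrays 1 and 2 they were GstD1 -0.027, GstD3 -0.040, GstE1 0.059, GstE10 1.11, GstE5 0.30, GstE7 0.37, GstE8 0.51, GstO1 0.092, GstO2 -0.63, GstO3 -0.23, GstS1 0.0013, GstT2 -0.075, Sod3 -0.33, Cat -0.44 and Prx3 0.14.
With single arrays left out the ranges that cross 0 were Gclc -0.87 to 0.12, Gclm -0.33 to 0.13, GstD10 -0.64 to 0.20, GstD11 -0.49 to 0.18, GstD4 -0.023 to 0.10, GstD5 -0.98 to 0.73, GstD9 -0.048 to 0.32, GstE12 -0.19 to 0.13, GstE8 -0.38 to 0.46, GstO2 -0.15 to 0.36, GstT2 -0.029 to 0.065, GstZ1 -0.94 to 0.27, Prx3 -0.11 to 0.11 and Sod2 -0.46 to 0.070.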

Other observations

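Marker lists of further cell types that the dissected tract can hold were also read. The 6 haemocyte markers had a median log2 difference of -0.22 relative to all genes, mated minus unmated. The 4 markers of secretory cells in spermathecae and accessory glands had 0.24, although Send1, a protease gene of spermathecal cells, stood at 566.7 on unmated array 1 and between 55.2 and 180.5 on the other arrays. The 3 measured nerve markers had 0.49 but split in direction. As plain log2 differences, elav and brp had 0.33 and 0.36 and nSyb had -0.86. Of the 6 arrays, brp was under 14.2 on 4 and nSyb on 2. The 5 markers of sperm and male accessory gland had a relative median of 0.02. By limma 0 genes of these lists passed. At an unadjusted p under 0.05, 2 were lower and 0 higher, against 5.56% and 1.04% of all probe sets. Those lower were the haemocyte gene PPO1, with a difference of -1.41, and the male accessory gland gene Acp26Aa, under 14.2 on all 6 arrays, with -1.46. Both were named after their values were seen.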
